A study of Mus musculus with 16 samples.

Results

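Baseline DNA break sites of wild-type (WT) cardiac myocytes were described from the END-seq peaks of 3 WT mice. A break region was taken as recurrent when peaks of 2 or more of the 3 WT lists overlapped in it by at least 1 bp on chromosomes 1 to 19. By this rule 4600 of 18699 merged regions were recurrent, 4012 in 2 lists and 588 in all 3, and the other 14099 regions were found in 1 list. The 3 lists held 23909 peaks on these chromosomes, out of 86280 in the 6 END-seq lists of the series.

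In the series, 16 libraries were made from cardiac myocytes of mice, which were isolated by perfusing the heart on a Langendorff apparatus. The WT mice carry no labelled transgene or deletion, and their labels give no age, sex or strain. No IgG or lamin A library was used here, and the END-seq libraries of the Lmna-deleted mice enter only in the total above. The series asks whether transcription is a source of double-strand breaks. A peak list holds no expression, so the labelled cell type could not be checked against its markers. Each list comes from 1 mouse, and n = 3 lists throughout. The number of reads per library is unknown here, and a missing peak does not show that a break was absent. In the list labelled WT 3, peak names start with WT-4, and a list labelled as knockout has the same start of names. WT 3 is used below as the label gives it.

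A double-strand break cuts both strands of DNA. END-seq ligates adapters to blunted break ends inside agarose-embedded cells, so reads start at the break and run away from it, and a break with 2 fixed ends gives reads on both sides of 1 position. In non-dividing cells such as adult myocytes, breaks are known to arise from topoisomerase activity, from transcription and from oxidative damage. Peaks also appear where many copies of a repeat are collapsed onto 1 place of the assembly, since reads of every copy then pile up there.

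The 3 lists were of very different length, and WT 1 stood apart. It held 1238 peaks, against 14881 in WT 2 and 7790 in WT 3 (mean 7970 ± 6823, SD, n = 3). Recurrence therefore rested mostly on WT 2 and WT 3. Of the recurrent regions, 3784 were in WT 2 and WT 3 alone, 588 in all 3 lists, 119 in WT 1 and WT 3 alone and 109 in WT 1 and WT 2 alone. Without WT 1 the number was 4376, and it was 707 without WT 2 and 698 without WT 3.

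Most recurrent regions had a fixed end. Among the 4357 regions with exactly 1 peak in WT 2 and 1 in WT 3, 3643 (83.6%, 95% Wilson interval 82.5 to 84.7%) had peaks that ended on the same base at 1 side or both. The shared base was at the left edge in 1728 regions, at the right edge in 1860 and at both in 55. At the other edge of the regions that shared 1, the lists differed by a median of 21 bp (middle 50% of regions, 9 to 38 bp). The summit, the base of highest signal, lay beside the shared edge, at a median of 8.75% of the peak's width from it in WT 2 and 10.1% in WT 3. It was in the nearer part of the WT 2 peak in 98.9% of these regions.

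**Figure D1:**
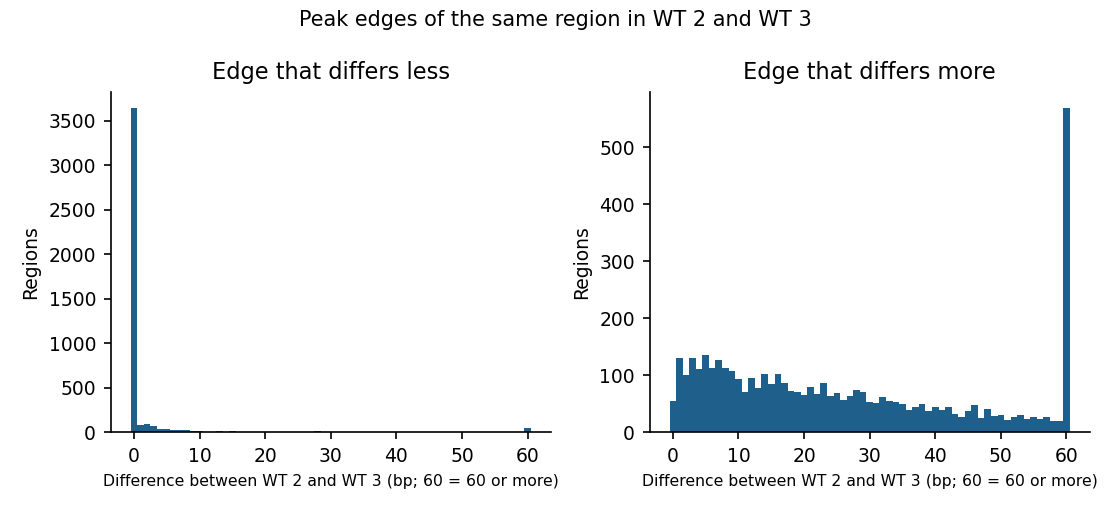
Difference in bp between the edges of the WT 2 and the WT 3 peak of the same region, for 4357 regions (bars, number of regions; the last bar holds 60 bp or more; the y axes differ). At the edge that differed less, 3643 regions stand at 0 bp, while the other edge is spread over the whole axis.

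The bases just outside most of the shared edges that could be read were alike. They are shown because the same letters recur at sites on different chromosomes. Promoter windows of RefSeq (build GRCm38.p6, which has the coordinates of mm10, 250 bases before to 50 after each gene start) gave the sequence of 41 of the 3588 edges shared at 1 side. The 10 protein-coding genes of highest mean fold whose window held 25 bases outside and 35 bases inside the edge are printed below, read 5′ to 3′ into the peak. Capitals mark the 13 bases just outside the edge, and the first lower-case base after them is the first base of the peak.
Mindy1, chr3:95282879-95282938, + strand: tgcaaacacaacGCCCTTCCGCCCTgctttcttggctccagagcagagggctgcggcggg
Ogdh, chr11:6292400-6292459, - strand: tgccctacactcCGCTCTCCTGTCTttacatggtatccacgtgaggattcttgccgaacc
Tbce, chr13:14039822-14039881, - strand: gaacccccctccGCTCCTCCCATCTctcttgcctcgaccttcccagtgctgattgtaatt
Lbh, chr17:72918278-72918337, - strand: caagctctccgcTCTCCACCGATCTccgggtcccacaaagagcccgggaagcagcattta
Sco2, chr15:89373845-89373904, - strand: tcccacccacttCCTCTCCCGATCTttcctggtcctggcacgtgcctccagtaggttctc
Bola2, chr7:126695926-126695985, - strand: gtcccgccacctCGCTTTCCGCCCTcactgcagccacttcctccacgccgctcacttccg
Mad2l1, chr6:66535203-66535262, - strand: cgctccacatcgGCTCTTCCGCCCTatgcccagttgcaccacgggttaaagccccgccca
Faf2, chr13:54621653-54621712, - strand: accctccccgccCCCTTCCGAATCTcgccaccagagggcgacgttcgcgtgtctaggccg
Stn1, chr19:47537161-47537220, + strand: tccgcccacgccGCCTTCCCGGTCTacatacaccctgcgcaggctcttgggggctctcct
Alad, chr4:62519894-62519953, + strand: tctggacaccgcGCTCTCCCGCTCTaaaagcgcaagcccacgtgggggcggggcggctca

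The genes behind these windows have unrelated roles. Ogdh is a subunit of the mitochondrial oxoglutarate dehydrogenase, Sco2 serves the assembly of cytochrome c oxidase, Alad makes porphobilinogen for heme, Mad2l1 is a spindle checkpoint protein, Tbce a tubulin chaperone and Stn1 a telomere end-binding protein. At Ogdh the fold over background, which the authors give for each peak against the background of its library, was 50.4 in WT 2 and 35.3 in WT 3. At Mindy1 the folds were 49.97 and 39.83, and at Alad they were 34.0 and 30.4. None of these 3 sites had a fold in WT 1, and WT 2 was above WT 3 at each. Both were common, since 3784 of the 4600 recurrent regions were in WT 2 and WT 3 alone. WT 2 was above WT 3 in 92.4% of the 4372 regions that these lists share.

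The leading letters before the 41 shared edges, from position -13 to -1, were CCTCTTCCGCTCT. The C at position -7 was found at 97.6% of the edges, the C at -2 at 95.1% and the C at -6 at 90.2%, and T at -3 and T at -1 at 87.8% each. At position -4 C led at 46.3% and A was second, with 16 of 41 edges. Of the 41 edges, 27 (65.9%) matched at least 9 letters of this consensus, that is, with at most 4 mismatches over 13 letters. Among the 10 printed sequences 7 matched by this rule, while Ogdh and Faf2 had 6 mismatches each and Stn1 had 5. The other edge of such peaks matched the consensus in 1 of 48 cases (2.08%), and 0.232% of all 13-letter words on both strands of the promoter windows did. With the consensus taken from the 27 edges on odd-numbered chromosomes alone, CCCCTTCCGATCT, 9 of the 14 edges on even-numbered chromosomes (64.3%) and 0.156% of all words matched. The consensus came from these edges, and the word length and the limit of mismatches were chosen after the letters were seen, so the share at the 41 edges is a description.

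The last 7 letters were CCGCTCT at 7 edges, CCGATCT at another 7 and CCTCTCT at 6. On either strand, CCGATCT was in 11 of 96 promoter windows that a recurrent region overlapped (11.5%) and in 1.11% of all 31396 windows, and CCGCTCT was in 20.8% and 4.62% of them. The contrast was smaller for CCTCTCT, in 17.7% and 11.2%, and for CCGCCCT, which ended 3 edges, in 24.0% and 11.4%. CCGATCC, at 4 edges, was in 6.25% and 1.58%. The words were picked from edges inside overlapped windows, so part of each contrast was fixed in advance, and the shares are descriptions. CCGATCT is also how the common Illumina sequencing adapter ends, and the labels name an Illumina protocol for the libraries. The consensus of the odd-numbered chromosomes ends in these 7 letters. In its last 7 letters the consensus of all 41 edges differs from them only at position -4, where A was second. The part of adapter or primer sequence in these peaks was not tested.

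The same letters were frequent beside peaks of WT 2 alone and rare beside those of WT 3 alone. Among peaks found in WT 2 only, 31 of 56 edges nearer the summit (55.4%, interval 42.4 to 67.6%) matched the consensus within 4 mismatches, against 1 of 64 edges farther from it (1.56%). Among peaks found in WT 3 only, 2 of 122 nearer edges (1.64%, interval 0.451 to 5.78%) and 1 of 99 farther edges (1.01%) did. Over all peaks of WT 3 alone, the summit lay a median of 28.0% of the width from the nearer edge. In peaks of WT 2 alone it lay at 13.8%. Median folds of these peaks were 5.59 in WT 3 and 10.6 in WT 2. The nearer edge is thus less clearly marked in WT 3, and the shares of the 2 lists are not of like places.

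**Figure D2:**
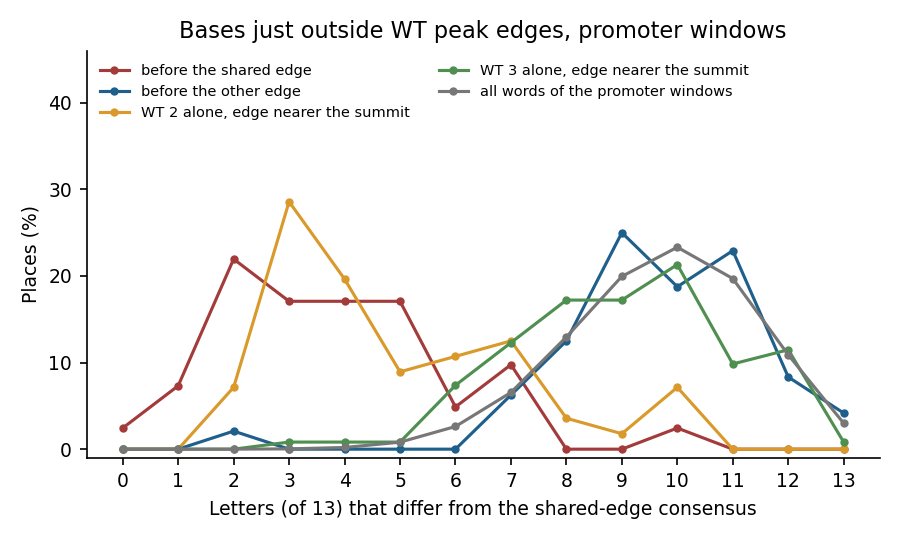
Number of letters, of 13, that differ from the shared-edge consensus (x axis) as a percentage of places (y axis), for edges that lie in promoter windows. Edges shared by WT 2 and WT 3 (n = 41) and the edges nearer the summit of peaks in WT 2 alone (n = 56) lie mostly at 5 letters or fewer, while the other edges (n = 48), peaks of WT 3 alone (n = 122) and all words lie mostly at 7 or more.

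Edges were also shared by the pairs that include WT 1. The peaks ended on the same base in 328 of 686 regions with 1 peak in WT 1 and 1 in WT 2 (47.8%, interval 44.1 to 51.6%) and in 354 of 698 with WT 1 and WT 3 (50.7%, interval 47.0 to 54.4%). The other edge differed by medians of 78 and 66 bp. Between WT 2 and WT 3 the share also varied with the fold. Over deciles of mean fold it was 38.5% in the lowest, 96.6% in the middle one of folds 19.4 to 22.2, and 72.7% in the highest. Of 43 regions wider than 500 bp with 1 peak in both lists, 4 shared an edge.

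Recurrent peaks had higher folds than the peaks of the same list that no other list held. In WT 2 the median fold was 28.3 (middle 50%, 17.5 to 39.5) for peaks in recurrent regions and 10.6 (7.06 to 16.5) for the others. In WT 3 the medians were 15.6 (10.02 to 24.86) and 5.59 (4.95 to 6.26), and in WT 1 they were 11.1 (7.58 to 17.3) and 6.34 (5.08 to 7.74). The ratio of medians was above 1 in all 3 lists, with a mean of 2.41 ± 0.57 (SD, n = 3). Peaks in all 3 lists had higher medians still, 37.0 in WT 2, 23.7 in WT 3 and 13.2 in WT 1. A fold helps a peak to be called at all, so no test was made of this order.

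**Figure D3:**
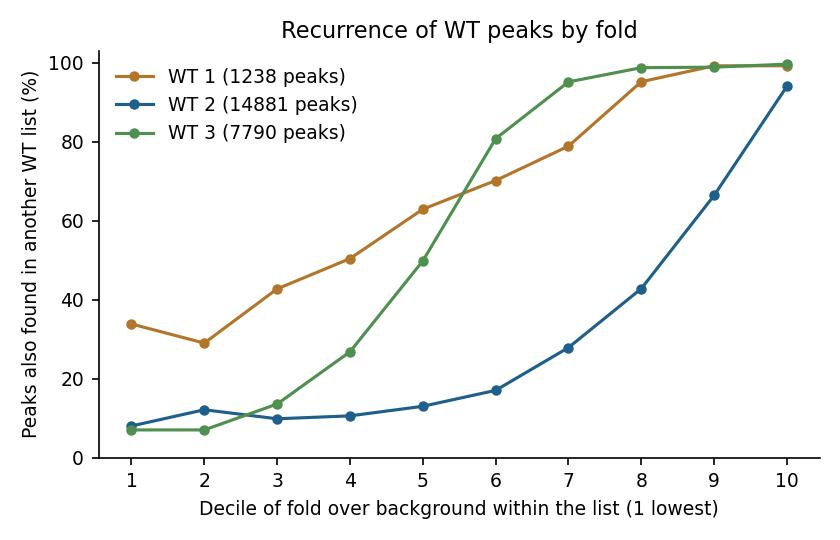
Percentage of each WT list's peaks that overlap a peak of another WT list (y axis), by decile of the list's folds (x axis, lowest to highest). In the highest decile 99.2% of WT 1 peaks, 94.0% of WT 2 peaks and 99.6% of WT 3 peaks recurred, and in the lowest decile 33.9%, 8.06% and 7.06% did.

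In shares of the lists, 66.2% of WT 1 peaks, 30.2% of WT 2 peaks and 57.7% of WT 3 peaks lay in recurrent regions (mean 51.4 ± 18.8%, SD, n = 3). Even placing of the peaks along the chromosomes would give overlap by chance to 17.6 of the 14881 WT 2 peaks with WT 3. The observed number was 4384, which is 249 times as many. For WT 1 the numbers were 700 against 2.86 with WT 2 and 710 against 1.58 with WT 3. The order of folds was also shared. Over the 4372 regions that WT 2 and WT 3 have in common, Spearman's rho of the folds was 0.89, over the 697 of WT 1 and WT 2 it was 0.72, and over the 707 of WT 1 and WT 3 it was 0.78. These are descriptions over regions, which share 1 library on each side.

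Peaks in recurrent regions were wider than those of 1 list by a small margin that was not alike in the 3 lists. Median widths were 201 against 150 bp in WT 2, 189 against 169 bp in WT 3 and 169 against 161 bp in WT 1, and the ratio was 1.17 ± 0.15 (SD, n = 3). The merged recurrent regions had a median width of 212 bp, with 90% of them between 156 and 320 bp. In all, 61 (1.33%) were wider than 500 bp, 40 of which were in all 3 lists, against 7 of the 14099 regions of 1 list. The wide regions had a lower median fold (8.47) than the other recurrent regions (21.4).

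Of the 61 wide regions, 35 overlapped no annotated gene, 10 overlapped only genes that are not protein-coding and 16 overlapped a protein-coding gene. The widest, chr1:24611641-24616038 (4398 bp), overlapped the pseudogenes Gm10222 and Gm10925 and had folds of 3.66, 6.54 and 5.49 in WT 1, WT 2 and WT 3. Rn18s-rs5, a copy of ribosomal RNA sequence listed as a pseudogene, was overlapped at chr17:39847557-39848778, with folds of 3.20, 18.8 and 10.3, and at chr17:39846250-39847138, with folds of 3.08, 2.97 and 3.44. No annotated gene stood at chr2:98666254-98667324 (1071 bp, folds 14.8, 14.7 and 13.8), which had the highest -log10 q of the regions in all 3 lists, or at chr4:3089549-3091131 and chr15:75085480-75087044. The 3 lists were close to each other at the chr2 region and at 1 of the ribosomal regions, and far apart at the other. The part of collapsed repeats in the wide regions was not tested.

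The 10 strongest regions of all 3 lists were 148 to 324 bp wide. The highest mean fold was at chr6:103649052-103649292 (241 bp) inside Chl1, a neural cell adhesion gene, with folds of 51.7, 58.0 and 49.6 in WT 1, WT 2 and WT 3 (mean 53.1 ± 4.4, SD, n = 3). The region chr13:77438909-77439056 inside 2210408I21Rik followed with 47.2, 58.6 and 51.3. At chr12:3109871-3110119, with no annotated gene, the folds were 47.8, 54.1 and 46.8. At these 3 sites WT 1 was close to WT 3, while at the sites that follow it was well below. At chr14:32875314-32875630 in Vstm4 the folds were 33.4, 63.5 and 52.9, and at chr3:20948523-20948783, outside genes, 35.9, 61.3 and 52.3. The 5 further regions of the 10 strongest were chr9:77695702-77696025, chr11:58284308-58284617 in 4930438A08Rik, chr9:24542015-24542163, chr14:30158984-30159301 in Cacna1d and chr15:82768228-82768532, with mean folds from 47.9 to 49.8. The highest -log10 q over the lists was 10391 at the Chl1 site, 9507 at the chr12 site and 1353 at the chr13 site. It was 553 to 1289 at the rest of the 10 strongest regions, and 22076 at the wide region chr2:98666254-98667324. The part of collapsed repeats at the Chl1 and chr12 sites was not tested.

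Other genes among the 10 with the strongest region in all 3 lists were Lnx2 (28.6, 61.7 and 53.5), an E3 ubiquitin ligase, and Fgfr1 (27.6, 61.2 and 53.6), a fibroblast growth factor receptor. Lrig3 (32.8, 59.0 and 48.9), Wwox (24.8, 59.7 and 51.9), a tumour suppressor at a fragile site, and Cdh13 (31.0, 55.8 and 47.4), a cadherin without a transmembrane domain, had the lowest means of the 10. In Cacna1d, the pore subunit of the L-type calcium channel that pacemaker cells use, the folds were 31.1, 61.7 and 51.4. The order WT 2, WT 3, WT 1 held at all 10 genes but Chl1, where WT 1 was above WT 3. Over all regions that a pair of lists shares, WT 2 was above WT 3 in 92.4% and WT 3 above WT 1 in 75.5%.

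Recurrent regions were spread over the genome at 1.88 per Mb of the 2442 Mb between the outermost genes and peaks of the chromosomes. The median distance between neighbours was 340 kb, against 368 kb for even placing. Of the 4600 regions, 254 (5.52%, interval 4.90 to 6.22%) had another within 10 kb, where even placing gives 3.70%, a ratio of 1.49. The ratio was 13.96 without WT 2 and 17.1 without WT 3, and with lists of equal length it was 0.652, below 1. Within 100 kb the share was 34.6% against 31.4%. The excess within 10 kb was smaller without 1 gene and without the wide regions. Without the span of Snhg14 the ratio was 1.31, without the wide regions 1.30, and without both 1.12 ± 0.16 (95% interval half-width), so that the share was then within counting error of even placing.

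Runs of regions less than 10 kb apart numbered 98, and 80 of them were pairs. The longest run, chr9:3000074-3038234, held 25 regions with no annotated gene at the start of the assembled chromosome, 24 of them in all 3 lists, and their median of mean folds was 3.83. The next were 12 regions at chr7:59767266-59805283 and 10 at chr7:59719220-59752283, both in Snhg14, then 7 at chr2:181917289-181932510 and 5 at chr7:59859846-59880314, again in Snhg14. Their median folds were 15.7, 19.4, 6.10 and 21.6. The fold of the chr9 run was thus far below that of the Snhg14 runs.

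Snhg14 is the long non-coding host transcript of the Snord116 and Snord115 small nucleolar RNA arrays, in the imprinted region that is homologous to the Prader-Willi and Angelman locus in humans. It held 37 recurrent regions over its span (chr7:59272737-60450177), where even placing gives 2.22. Neighbouring regions lay at a regular distance. Of 36 gaps, 17 measured between 2466.5 and 2581.5 bp, with a repeat unit of 2542.5 bp, 9 were 2 units long, and 29 were within 100 bp of 1 to 4 units. The Snord116 copies that the gene table lists there, 17 in all, start a median of 2532 bp apart. Among the 7 regions in that array, 6 had their midpoint 720 to 752.5 bp beyond the start of the nearest copy.

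All 37 regions of Snhg14 had 1 peak in WT 2 and 1 in WT 3. The left edge was the same base in 33 of them and the right edge in 1. The fold was 8.23 to 36.4 in WT 2 (median 20.6) and 9.46 to 29.0 in WT 3 (median 16.2). WT 1 had a peak in 6 of the 37, with folds from 7.66 to 16.5. Few peaks in WT 1 and a shared edge were also the rule elsewhere. Of all 4600 recurrent regions, 3784 were in WT 2 and WT 3 alone, and 83.6% of the 4357 compared shared an edge. The side differed, as most of the 37 shared the left edge, while over all regions it was the left in 1728 and the right in 1860.

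**Figure D4:**
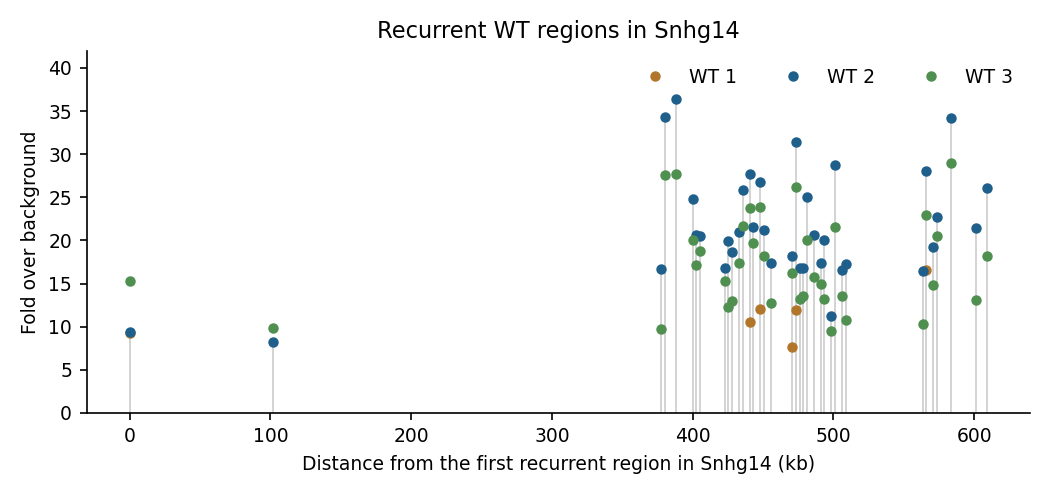
Fold over background of WT 1, WT 2 and WT 3 (y axis, points) at each of the 37 recurrent regions in Snhg14, by distance in kb from the first region (x axis; grey lines mark the WT 2 value). The first 2 regions stand alone, and the other 35, with WT 2 at 11.2 to 36.4, lie beyond a gap of 276 kb.

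Windows of 1 Mb showed the same concentration. The highest numbers were 37 regions at chr7:59000001-60000000, 27 at chr9:3000001-4000000, 13 at chr5:15000001-16000000 and 12 at chr10:126000001-127000000, followed by 9 each at chr8:25000001-26000000, chr11:3000001-4000000 and chr13:113000001-114000000. Over 2452 windows, 447 held no recurrent region, where even placing gives 376, and 50 held 6 or more, where it gives 30.6. The 310 windows in which no protein-coding gene starts held 1.27 ± 1.25 regions, and the 273 windows with 20 or more such genes held 2.20 ± 1.63 (SD over windows).

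Chromosomes differed by a factor of 1.51 in density, which was 2.32 without WT 2, 2.57 without WT 3 and 2.32 with lists of equal length. The larger factors rest on fewer regions, with a counting error upward of 1.34 to 1.55, against 0.324 for the first. Chromosome 17 had the highest, 2.30 regions per Mb (95% Poisson interval 2.004 to 2.626), and chromosomes 15, 7 and 19 followed with 2.27, 2.22 and 2.21. Of the 323 regions of chromosome 7, 37 lay in Snhg14. Chromosome 14 had the lowest, 1.52 per Mb (1.31 to 1.76), after chromosomes 6 and 3 with 1.66 and 1.67. The intervals of chromosomes 17 and 14 did not overlap, and those of neighbours in the order did. Chromosomes 17 and 14 were picked as the extremes of 19, so their intervals do not test a difference between them. Across the 19 chromosomes the density of regions went with the density of protein-coding genes, with Pearson's r of 0.64 and Spearman's rho of 0.60, a description over chromosomes that share the 3 libraries.

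Genes were about as likely to hold a recurrent region as their length gives. Of 20665 protein-coding genes on chromosomes 1 to 19, 1743 (8.43%) had 1 or more in their span plus 1000 bp each side. Even placing would give 1609. The number was 236 without WT 2 and 241 without WT 3. The genes with a region had a median length of 87.8 kb, against 15.7 kb for those without. In all, 2047 of the 4600 regions (44.5%, interval 43.1 to 45.9%) lay at protein-coding genes, which cover 41.7% of the sequence, a ratio of 1.07. The ratio was below 1 without WT 2 (0.821) and without WT 3 (0.839). In WT 1 the share was 33.2% of the peaks in recurrent regions, and in the 588 regions of all 3 lists it was 36.4%, both below the share of sequence, while it was 45.0% in WT 2 and 44.8% in WT 3.

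The excess over even placing was at genes of short and middle length. The shortest genes, up to 0.948 kb, showed none, with 4 regions against 5.96 expected. Genes of 3.1 to 4.39 kb held 27 regions where 11.6 were expected, a ratio of 2.32 ± 0.45 (Poisson SE), and genes of 7.71 to 9.77 kb held 34 against 21.3, a ratio of 1.60 ± 0.27. The 7 bins from 9.77 to 36.4 kb had ratios of 1.15 to 1.37, and the bin of 45.0 to 57.9 kb had 0.89. The longest bin, 187 kb and more, held 796 against 798, a ratio of 1.00 ± 0.04. The 216 genes of 500 kb or more held 313 regions where 345 were expected, a ratio of 0.91. Promoter windows showed the excess too. Of the 4422 recurrent regions on the 18 chromosomes whose promoter sequences were used, 81 (1.83%, interval 1.48 to 2.27%) overlapped a window, 2.98 times the 0.614% of even placing. Regions of 1 list did so in 1.94% (interval 1.72 to 2.19%), 3.16 times even placing, but this share mixes unlike lists. It was 5.34% in WT 3 alone, 8.71 times even placing. In WT 2 alone it was 0.923% (interval 0.753 to 1.13%), 1.50 times even placing and below the recurrent share. In WT 1 alone it was 0.249%, 0.406 times even placing. An excess was thus also seen outside recurrent regions, but it exceeded theirs in WT 3 alone only.

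**Figure D5:**
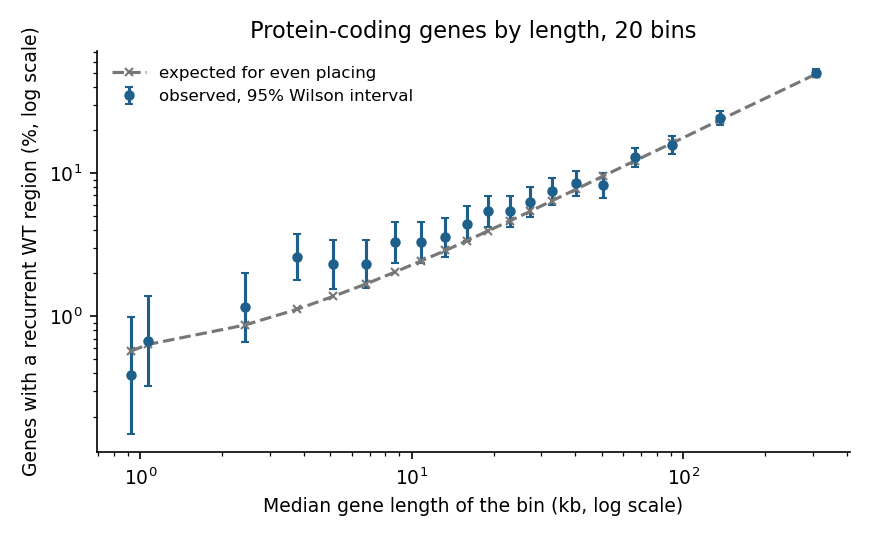
Percentage of protein-coding genes with a recurrent WT region (y axis, log scale), by median gene length of 20 bins of equal size (x axis, kb, log scale). Points are observed values with 95% Wilson intervals and the dashed line is even placing. The interval lies wholly above the line in bins with medians such as 3.77 and 5.12 kb, and the points from 50.8 kb upward lie close to it.

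The genes with the most regions were nearly all very long. Cdh12, a neuronal cadherin gene of 1150 kb, held 7 where 2.17 were expected, with 3 peaks in WT 1, 9 in WT 2 and 13 in WT 3. Nkain2, whose product binds the sodium pump, held 7 (expected 2.28) over 1208 kb, and Cdh13 held 6 (2.24). There were 5 regions each in Alk, a receptor tyrosine kinase (expected 1.39), Asic2, an acid-sensing ion channel (2.05), Ptprt, a receptor phosphatase (2.15), and Macrod2, an ADP-ribose hydrolase (3.77). Macrod2 held 1 peak in WT 1, 22 in WT 2 and 8 in WT 3, and Cdh13 held 1, 18 and 6, so that most WT 2 peaks in them were not shared. The same held over all WT 2 peaks, of which 10388 of 14881 were in that list alone.

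Among the genes with 4 regions other than Sfi1, described below, Itpr1, an inositol trisphosphate receptor that releases calcium from the store (expected 0.641), Tmtc2 (0.733), Trappc9 (0.893) and Samd12 (0.952) were the farthest above expectation. Slc9a9, a sodium and proton exchanger, had 1.06 expected, Ptprn2 1.50, Camta1 1.52, Tenm2 2.32 and Agbl4 2.39. Lrp1b, a lipoprotein receptor relative, and Lsamp, a limbic adhesion protein, also held 4, where 3.88 and 4.14 were expected. The number of regions in these last genes was thus that of their length.

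Relative to length, the densest genes were of moderate size. Cdc20b (86.0 kb) held 5 regions where 0.166 were expected, in WT 2 and WT 3 only, and 4 of them formed a run of 10.6 kb at chr13:113081031-113091600. Sfi1, a centrin-binding protein of the centrosome, held 4 where 0.139 were expected. Its regions had mean folds from 3.65 to 8.95 and it held 11 peaks in WT 1, the shortest list, and 5 each in WT 2 and WT 3. Elp3, a subunit of the Elongator complex, held 3 (expected 0.122) with mean folds from 8.30 to 33.3. Adgra3, an adhesion receptor (0.191), Grb10, an imprinted adaptor of insulin signalling (0.206), Kcnn3, a small-conductance calcium-activated potassium channel (0.291), Dapk1 (0.308), Cit (0.313), Acss3 (0.363) and Rtn1 (0.376) held 3 each. The highest mean folds were 49.7 in Dapk1, 47.2 in Adgra3 and 45.6 in Grb10.

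Some very long genes held none. Of the 216 genes of 500 kb or more, 160 held a recurrent region, and the longest genes without one are named here. Ptprd, a receptor phosphatase of 2271 kb, had no recurrent region where 4.28 were expected, though WT 1 had 1 peak in it, WT 2 had 11 and WT 3 had 2. Naaladl2 (expected 2.54), Dcc, the netrin receptor (2.07), Astn2 (1.93), Cntn4 (1.93), Robo1, the Slit receptor (1.93), Cadm2 (1.82), Thsd7b (1.79), Nckap5 (1.73) and Adamtsl1 (1.73) likewise held none. These genes had 2 to 7 peaks in WT 2 and 1 to 5 in WT 3, with no overlap between lists.

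The gene lists were read against the share of all genes in the same length bin, beside the background of 8.43%. Of 27 genes of the contractile apparatus, 7 held a recurrent region, where genes of like length give 2.92. These were Tnnc1 and Tnnt2 (troponins), Acta1 (skeletal alpha-actin), Csrp3 (muscle LIM protein), Flnc (filamin C), Nebl (nebulette) and Ttn (titin), with 1 region each. The highest peak fold in WT 2 and WT 3 was 42.6 and 29.2 at Tnnc1, 41.3 and 30.5 at Csrp3, 32.8 and 20.1 at Tnnt2, 21.8 and 11.3 at Acta1, and 9.41 and 11.3 at Flnc. At Nebl it was 25.3 and 15.7, and at Ttn 16.2 and 9.15, among 4 WT 2 peaks in either gene. WT 1 had no peak at any of the 7, so no contractile gene was recurrent without WT 2 or without WT 3. No test of the list was made.

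Ion channel and calcium handling genes held regions in 7 of 22, where 6.85 were expected from their bins. Ryr2, the calcium release channel of the sarcoplasmic reticulum, held 2, with 1 peak in WT 1, 6 in WT 2 and 3 in WT 3 and highest folds of 9.69, 45.5 and 25.1. Cacna1d also held 2, and Asph, Cacnb2, Itpr2, Kcnh2, the channel of the rapid delayed rectifier current, and Trdn, triadin, held 1 each. Genes of mitochondria and fatty acid oxidation had 3 of 22 (expected 2.22): Ogdh, Hadha, a subunit of the trifunctional protein, with folds of 28.3 and 13.1 in WT 2 and WT 3, and Esrrg, an orphan nuclear receptor. Muscle signalling and splicing genes had 5 of 18 (3.90): Rbfox1 with 3 regions, and Celf2, Gata4, Mbnl2 and Mef2c with 1. Genes of the dystrophin complex and junctions had 4 of 19 (4.27), among them Sgcd, Tjp1 and Utrn. None of these 4 lists stood more than 2 genes from its expectation.

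Of the 28 neuronal adhesion genes, 24 held a region, and of the 15 common fragile site genes, 14 did. The bins gave 14.1 and 7.54, but the longest bin spans 187 to 2271 kb and these lists hold genes of 1147 and 1346 kb in the median. Even placing per bp gave 24.2 and 13.5, close to the observed numbers, and the regions in them numbered 63 against 66.6 and 29 against 38.2. Apart from genes already given, Dpyd, which degrades uracil and thymine, held 3 regions. Genes that the 2 lists share, such as Lrp1b, count in both.

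The remaining lists had few members with a region. There was 1 of 24 DNA damage response genes (expected 2.52), Trp53bp1 with 2 regions and highest folds of 21.2 in WT 2 and 9.39 in WT 3. There were 2 of 13 nuclear envelope genes (1.80), Lmnb1, lamin B1, with 2 regions and folds of 53.1 and 38.4, and Syne1, nesprin 1, with 2 regions and folds of 45.8 and 32.9. Immediate early and stress genes had 1 of 21 (0.556), Nr4a3, an orphan nuclear receptor, with folds of 56.8 and 46.5. Olfactory and vomeronasal receptor genes had 10 of 1458 (18.4). Housekeeping genes had 0 of 14 (0.515), fibroblast genes 0 of 10 (0.673) and smooth muscle and pericyte genes 0 of 9 (0.828). Endothelial genes had 2 of 10 (1.34), Flt1 and Pecam1, immune genes 1 of 10 (0.790), Ptprc, and genes of other organs 1 of 20 (0.872), Tg, thyroglobulin. A list with fewer than 1 expected gene cannot show a lack of regions.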

How the data were processed

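END-seq peaks were deposited per library in the layout of MACS narrowPeak output, per the file headers. The fold is the authors' linear ratio of peak to background within a library, and the deposited -log10 q was at least 2.0 for every peak used, so all were kept. Build mm10 and the tools DiffBind, FastQC and SEACR stand in the submitters' processing notes, with no version. No source used here names an aligner. A list grows with depth and enrichment, so lists of unequal length limit recurrence.

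Overlapping peaks (1 bp or more) of the 3 WT lists were merged. Genes came from the RefSeq table of GRCm38.p6, and 1000 bp was added on both sides. Expectations are formulas for even placing (Poisson) or the share of all genes in 20 bins of length; no test between groups was made. Intervals cover counting error only. Genes were named by rules on number of regions, fold, ratio to expectation and list membership, and Snhg14 was named after its values were seen. Some genes that the rules take are not reported here. Members, lists and rules were chosen with earlier results of these data known. The alternatives were leaving out each list, a stricter q (0.00001 or less), equally long lists, other overlaps, more chromosomes, other gene spans and other length bins. Merging, edges and spacing were tested on simulated data. The software was scipy 1.17.1, matplotlib 3.10.9, pandas 2.3.3 and numpy 2.4.6 in Python 3.11.15.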

Additional observations from a re-analysis of the deposited data

Results flagged for a closer look

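Recurrent WT regions also occurred outside chromosomes 1 to 19, in peaks that no comparison above used. The X chromosome held 211 recurrent regions (1.24 per Mb), from 84, 366 and 512 peaks in WT 1, WT 2 and WT 3, so that WT 3 had more peaks than WT 2 there. The Y chromosome held 20, from 23, 211 and 18 peaks. Unplaced and mitochondrial sequences held 89, from 96, 128 and 109 peaks, where the 3 lists were of like length. The sex of the mice is not labelled, and no cause was tested.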

How the results depend on the processing

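Of 81 values recomputed under alternatives, 51 stayed within the replicate spread or counting interval of the reported value (within 1.5 times for numbers of regions or genes). Leaving out 1 list gave 698 to 4376 recurrent regions, 30.6 to 42.8% of peaks in them, width ratios of 1.16 to 1.26, fold ratios of 2.02 to 2.76, spacing ratios of 1.56 to 17.1, chromosome ratios of 1.48 to 2.57, 236 to 1708 genes and list ratios of 1.18 to 1.67 against 1.15. The share at genes relative to sequence, 1.07, went from 0.821 to 1.09, and was below 1 without WT 2 (0.821) or WT 3 (0.839). With lists of equal length (1238 peaks each) there were 1062 regions and 507 genes, the fold ratio was 1.62, the chromosome ratio 2.32, the share at genes 1.15, and the spacing ratio 0.652, below 1. A peak in all 3 lists was required for 588 regions. The spacing ratio was 1.10 within 100 kb, and, chosen after seeing the data, 1.30 without wide regions, 1.31 without Snhg14 and 1.12 without both. Outside genes the chromosome ratio was 1.84. For all lists together, 100 bins gave 0.989 and even placing 0.970, so the excess over 20 bins was lost. Shared edges, also chosen after seeing the data, were 85.6% within 1 bp, 47.8% for WT 1 with WT 2 and 50.7% for WT 1 with WT 3. No paired analysis was possible because no groups were compared. The cause of these shifts was not tested, and unknown depth limits every statement on missing peaks.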

Other observations

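Promoter windows were also overlapped by peaks of 1 list, and the lists differed. Of 3182 regions found in WT 3 alone, 170 (5.34%, interval 4.61 to 6.18%) overlapped a window, 8.71 times the 0.614% of even placing. Of 9969 regions in WT 2 alone, 92 (0.923%, interval 0.753 to 1.13%) did, 1.50 times even placing, and 1 of 401 in WT 1 alone did. The intervals of WT 2 and WT 3 did not overlap. Along the genes whose strand the promoter table gives, recurrent regions lay nearer the start than the end in 48.6% of 1555 cases (interval 46.1 to 51.1%). With the gene cut into 10 equal stretches, the share ran from 7.59% to 12.1%, and the stretch at the start had the highest.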
